A study of Mus musculus with 4 samples.

Results

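The genes described here are the nucleoporins, importins and exportins of naive CD4+ T cells and of the same cells 3 h into culture toward induced regulatory T (iTreg) cells. They were taken by name: every gene whose symbol in the array files is a Nup followed by a number, or a numbered Kpna, Kpnb, Ipo or Xpo, or Xpot. This gave 40 genes of 24810 named on the array, made up of 20 nucleoporins, 14 importins and 6 exportins. They are read by 103 probes of 56605. The rule reads names only, but it was chosen with earlier results of these data known.

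The nuclear pore complex is a ring of nucleoporins set into the nuclear envelope. Its scaffold is built of stacked rings, and disordered nucleoporins rich in phenylalanine and glycine (FG) fill its channel and hold back large molecules. Importins and exportins bind their cargo and pass through this FG barrier, and the small GTPase Ran, loaded with GTP in the nucleus, makes importins let go of cargo and exportins take it up. A naive T cell is small and quiescent. After its antigen receptor is engaged it grows, makes ribosomes and later divides, which calls for import of ribosomal proteins and histones and for export of tRNA and ribosomal subunits.

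RNA was measured on 4 single-colour arrays. Naive T cells and iTreg 3 h cells were hybridised from either genotype, WT or Nr4a-TKO, with 1 array for each group. Nr4a-TKO cells carried floxed Nr4a1 and Nr4a2 alleles and were Nr4a3-/-, on a C57BL/6J background, with a human CD2 and CD52 reporter in the Foxp3 locus; the driver of the recombinase is not given in the sources used here. They were sorted, as Ly5.2+ cells, from irradiated Rag2-/- recipients of a mixture of WT and Nr4a-TKO marrow, whereas the recipients for WT cells had only WT marrow, so the genotypes also differ in the marrow their hosts received. Both were sorted from spleen and lymph nodes as naive CD4+ cells, with CD44-low, CD25-low and Foxp3- among the gates. The iTreg cells had 3 h on plate-bound anti-CD3 (2 μg/ml) with anti-CD28 (0.5 μg/ml), IL-2 (10 ng/ml), TGF-β1 and antibodies against IFN-γ and IL-4. The labels give TGF-β1 as 0.2 or 0.5 ng/ml without saying which was used for the arrays. Young adult mice of both sexes are named for the study as a whole, and the sex and age of the mice behind each array are not given in the sources used here.

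Each value is the log2 of a probe's processed intensity minus the 75th percentile of its array, called the log2 signal here, so 0 is the level of that percentile and a difference of 1 is 2-fold. Levels are therefore relative to the other transcripts of the same array, and a change in the total RNA of a cell is not seen. Each group had 1 array, so there is no replicate error, no p-value is given, and a gene is said to rise or fall only past 2-fold. On probes spotted at least 5 times, the SD between spots of 1 array was 0.041 to 0.050 on the log2 scale, which gives an SD of 0.065 for a difference between 2 arrays. This covers the array's own error only.

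The 5 CD4+ T cell genes checked, Cd4 and Cd3e among them, were well above background on every array. From WT naive T to WT iTreg 3 h, all 5 early activation genes listed rose (Cd69 by 3.45 and Myc by 2.50 log2 units). All 4 B cell genes were lower at 3 h in either genotype. Cd79b had a log2 signal of 0.61 and 0.05 on the naive arrays of WT and Nr4a-TKO and of -2.33 and -1.35 at 3 h, and Cd79a was 2.32-fold higher in Nr4a-TKO at 3 h. Of 4 myeloid genes, Cd14 was at -0.32 on the WT naive T array, at -3.50 and -2.88 on the Nr4a-TKO arrays and not well above background in WT iTreg 3 h (-4.26). Itgam read 8.18 to 8.53 and Csf1r 4.33 to 4.73 on all arrays, each on the brighter of its 2 probes, and Lyz2 was at -3.01 or less. The other probes of Itgam and Csf1r are not given here, so these levels are not read as an amount of myeloid cells. The part of such cells in the results was not tested. In bulk RNA, fewer cells of a type and less RNA per cell cannot be told apart.

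The targeted genes did not follow the labels throughout. Nr4a1 had a log2 signal of 0.28 in WT naive T, 1.57 in Nr4a-TKO naive T, 4.70 in WT iTreg 3 h and 5.20 in Nr4a-TKO iTreg 3 h, and both probes of Nr4a2 were also higher on the arrays labelled Nr4a-TKO. Of 3 Nr4a3 probes, the brightest read 2.90 in WT iTreg 3 h and 3.12 in Nr4a-TKO iTreg 3 h, and those of the RefSeq mRNAs read 2.21 and 2.72 in WT against 0.66 and 0.75 in Nr4a-TKO. Which exons are deleted is not given in the sources used here, so a probe outside them would check nothing. WT and Nr4a-TKO therefore stand here for the arrays with these labels.

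Most of the 40 genes were higher after 3 h, in either genotype. In WT, 36 of 40 had a higher signal at 3 h and 13 rose more than 2-fold, or 32.5%, against 10.3% of all 18096 genes compared. The median difference was 0.59 log2 units over the 40 genes and -0.12 over all genes. None fell more than 2-fold, against 12% of all genes. In Nr4a-TKO, again 13 rose, against 9.94% of all genes, with a median of 0.67 over the 40 genes and -0.07 over all genes. Nup210 fell there, in a comparison where 10.9% of all genes fell.

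The 2 changes share no array, so they can be set side by side. Of the 13 genes that rose in WT, 11 also rose in Nr4a-TKO, which is 84.6% of either list. The matching share over all genes is not given here, so this overlap is not read as particular to these genes. On the probes used, Ipo13 and Xpot passed 2-fold in WT alone and Kpnb1 and Nup160 in Nr4a-TKO alone. For Nup160 this depends on the probe, since its other RefSeq mRNA probes rose in WT, by 1.43 and 1.06 log2 units. In both genotypes together, 34 genes were higher, 2 were lower and 4 differed in direction. All but 1 of the 40, Nup210l, had a probe well above background on the 4 arrays.

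**Figure D1:**
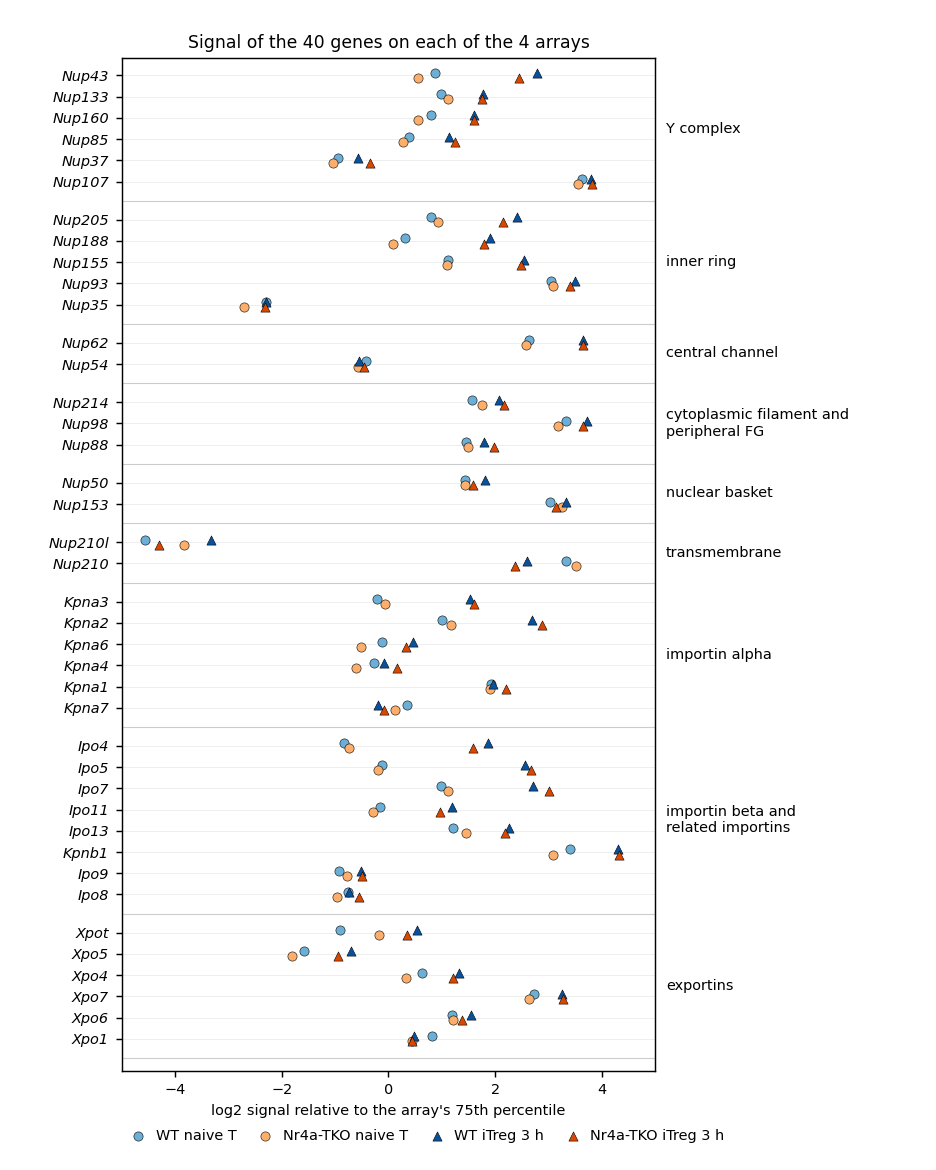
Log2 signal of each of the 40 genes, relative to the 75th percentile of the array, on the 4 arrays, with genes grouped by their place in the pore or their role in transport and ordered within a group by their change in WT. Circles are naive T cells and triangles iTreg cells at 3 h, with WT in blue and Nr4a-TKO in orange; each point is 1 array. Triangles lie to the right of circles for most genes, as for Ipo4 and Ipo5, and to the left for Nup210. Levels of different genes come from different probes and are not comparable.

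**Figure D2:**
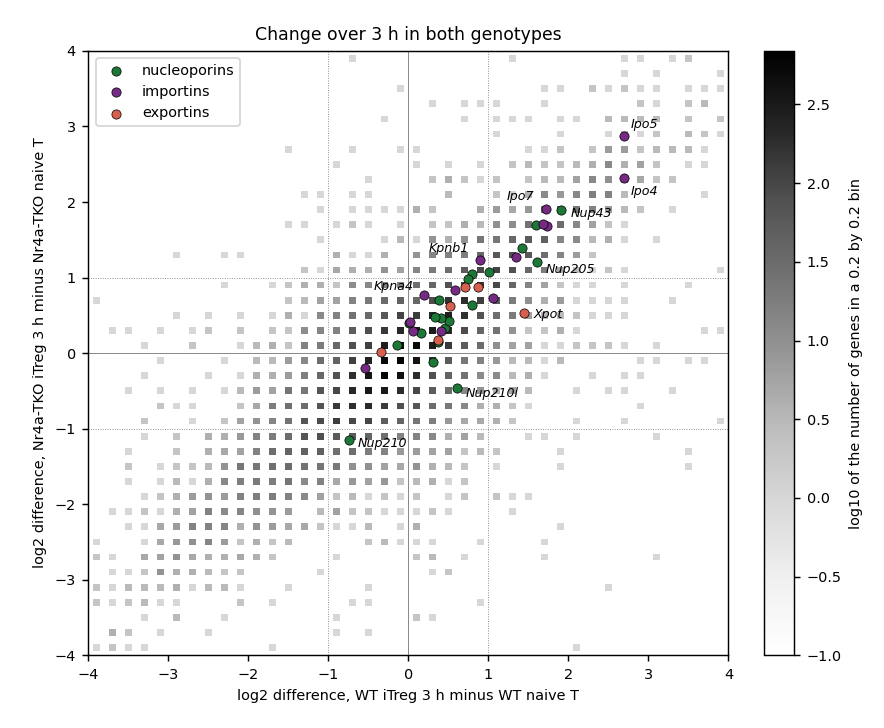
Change over 3 h in Nr4a-TKO (vertical) against that in WT (horizontal), in log2 units. Grey squares are bins of all genes, darker with more genes, coloured points are the 40 genes, and dotted lines mark 2-fold. Of the 40 points, 11 lie past 2-fold in both genotypes.

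The importins that carry cargo directly held the steepest rises. These are relatives of importin β that bind cargo without an adaptor. Ipo4, an importer of histones, had a log2 signal of -0.83 in WT naive T, -0.73 in Nr4a-TKO naive T, 1.86 in WT iTreg 3 h and 1.58 in Nr4a-TKO iTreg 3 h. For Ipo5, which imports ribosomal proteins and histones, the values were -0.12, -0.20, 2.57 and 2.68 in the same order. The naive and the 3 h arrays were far apart for both genes. Ipo4 rose 6.46-fold in WT and 4.97-fold in Nr4a-TKO, and Ipo5 rose 6.45-fold and 7.36-fold.

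Ipo7, another importer of ribosomal proteins and a partner of importin β1, had 0.99 and 1.11 in WT and Nr4a-TKO naive T against 2.72 and 3.02 at 3 h, which are rises of 3.31-fold and 3.74-fold. Ipo11, an importer of ubiquitin-conjugating enzymes, had -0.15 and -0.30 in naive T and 1.19 and 0.97 at 3 h. It rose 2.53-fold and 2.41-fold on this probe, but not on its others, which are described further on. Ipo13, which carries different cargo in each direction, had 1.21 and 1.45 in naive T and 2.27 and 2.18 at 3 h, so that it rose 2.09-fold in WT and was 1.66-fold higher in Nr4a-TKO. The rise in WT is close to the threshold. It was lost with the steps of RMA, with scaling to detected probes and with the mean of its probes, the other of which differed by 0.31 in WT.

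Kpnb1 encodes importin β1, the receptor shared by all classical import. It stood at 3.41 in WT naive T, 3.08 in Nr4a-TKO naive T, 4.30 in WT iTreg 3 h and 4.32 in Nr4a-TKO iTreg 3 h. The arrays at 3 h thus read alike, and the naive arrays differed by 0.33. This made it 1.85-fold higher in WT and a 2.36-fold rise in Nr4a-TKO, where its other probe was higher by 0.58. The mean of both probes, 0.91, and normexp with an offset of 50, 0.99, do not pass 2-fold in Nr4a-TKO. Ipo8, known for the import of Argonaute proteins, gave the smallest difference of the group in WT, with -0.76 and -0.96 in naive T and -0.73 and -0.55 at 3 h. In all, 5 of the 8 genes of this group rose in each genotype, with medians of 1.20 in WT and 1.25 in Nr4a-TKO.

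Importin α proteins are the adaptors that read the classical nuclear localisation signal and hand the cargo to importin β1. Kpna3 had -0.21 and -0.07 in WT and Nr4a-TKO naive T and 1.52 and 1.61 at 3 h, rises of 3.32-fold and 3.20-fold. Kpna2, whose level is known to go with proliferation, had 1.00 and 1.17 in naive T and 2.69 and 2.88 at 3 h, and rose 3.21-fold and 3.26-fold. On its other RefSeq mRNA probe the rise in WT was larger, at 2.68 log2 units. Both genes moved alike in the 2 genotypes.

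The rest of this family did not pass 2-fold on the probe used. Kpna7, an importin α known from oocytes and early embryos, was lower at 3 h, with 0.35 and 0.12 in naive T and -0.19 and -0.08 at 3 h, differences of -0.54 and -0.20. Kpna1 had 1.91 in both naive arrays and 1.97 and 2.20 at 3 h, on a probe for an Ensembl transcript record. Its RefSeq mRNA probes rose, by 1.24 and 1.65 in WT and by 1.39 and 1.46 in Nr4a-TKO. Kpna4 and Kpna6 were higher at 3 h by 0.19 and 0.59 in WT and by 0.77 and 0.83 in Nr4a-TKO.

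On the probes used, 1 of 6 exportins rose in WT and none in Nr4a-TKO, with medians of 0.61 and 0.58. It was Xpot, the exportin of tRNA. It had a log2 signal of -0.91 in WT naive T, -0.18 in Nr4a-TKO naive T, 0.54 in WT iTreg 3 h and 0.35 in Nr4a-TKO iTreg 3 h. The WT naive T array was the low one, and the arrays at 3 h differed by 0.18. It rose 2.73-fold in WT and was 1.44-fold higher in Nr4a-TKO, on its only probe. The rise in WT was 0.95 log2 units, and so lost, with normexp and an offset of 50. Xpo1, the main exportin of proteins, had the lowest change of the group in WT, with 0.81 and 0.44 in naive T and 0.47 and 0.45 at 3 h, so that the WT naive T array alone was high. Xpo5, the exportin of pre-miRNA, had -1.58 and -1.81 in naive T and -0.71 and -0.94 at 3 h, and was 1.83-fold higher in either genotype. Xpo7 had 2.72 and 2.64 in naive T and 3.24 and 3.27 at 3 h. Xpo4, which exports eIF5A, and Xpo6, the exportin of actin, were higher by 0.70 and 0.36 in WT on the probes used. For Xpo4 this depends on the probe. Of its 3 probes, 2 rose in WT, among them its other RefSeq mRNA probe, by 1.43 log2 units. None of the 3 passed 2-fold in Nr4a-TKO. With the mean of all its probes, Xpo4 passed 2-fold in WT and not in Nr4a-TKO.

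Among the nucleoporins, those of the inner ring, which lines the pore at the level of the membrane, rose most often. Nup205 had 0.80 in WT naive T, 0.93 in Nr4a-TKO naive T, 2.40 in WT iTreg 3 h and 2.14 in Nr4a-TKO iTreg 3 h. The values of its paralogue Nup188 were 0.31, 0.09, 1.90 and 1.78 in that order, and those of Nup155 were 1.12, 1.09, 2.53 and 2.49. All 3 of these large scaffold proteins rose in both genotypes, by 3.04-fold, 3.01-fold and 2.67-fold in WT and by 2.31-fold, 3.24-fold and 2.63-fold in Nr4a-TKO. Nup93, which ties the ring together, had 3.05 and 3.08 in naive T and 3.51 and 3.41 at 3 h, and was 1.37-fold and 1.26-fold higher. Nup35, a membrane-binding part of the ring, had -2.30 and -2.71 in naive T and -2.29 and -2.31 at 3 h, with the Nr4a-TKO naive T array below the other 3.

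The Y complex builds the outer rings. Its Nup43 rose 3.76-fold in WT and 3.73-fold in Nr4a-TKO, with 0.87 and 0.55 in naive T and 2.78 and 2.45 at 3 h. Nup160 had 0.80 and 0.55 in naive T and 1.60 and 1.61 at 3 h, which is 1.74-fold higher in WT and a 2.08-fold rise in Nr4a-TKO. The latter was lost with the steps of RMA (0.93), with scaling to detected probes (0.93) and with the mean of its probes (0.67). Nup107 had the smallest change of the complex in WT, with 3.64 and 3.56 in naive T and 3.79 and 3.82 at 3 h, and its other probe differed by -0.42 in WT. The subunits of this complex thus differed in WT by 0.16 to 1.91 log2 units. Nup133, Nup85 and Nup37 lay between, from 0.38 to 0.80 in WT.

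Of the FG nucleoporins in the channel, Nup62 had 2.63 and 2.58 in naive T and 3.64 and 3.65 at 3 h, 2.01-fold and 2.10-fold rises that only just passed the threshold and were lost with the steps of RMA or with scaling to detected probes. Its partner Nup54 had -0.41, -0.57, -0.56 and -0.46 on the 4 arrays with the brightest probe. On the probes used, the genes of the cytoplasmic face and the peripheral FG proteins stayed within 2-fold in both genotypes. Nup214 had 1.57 and 1.75 in naive T and 2.07 and 2.17 at 3 h. Nup88, its binding partner, had 1.46 and 1.49 in naive T and 1.80 and 1.97 at 3 h. Nup98, which anchors the mRNA export factor Rae1, had 3.33 and 3.17 in naive T and 3.73 and 3.64 at 3 h.

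The 2 nuclear basket genes stayed within 2-fold in both genotypes on each of their probes. Nup50, which helps to release importin α from its cargo, had 1.44 in both naive arrays, 1.81 in WT iTreg 3 h and 1.59 in Nr4a-TKO iTreg 3 h. The other RefSeq mRNA probe of Nup50 was higher by 0.86 in WT and by 0.60 in Nr4a-TKO. Nup153, which docks the basket, had 3.02 in WT naive T, 3.25 in Nr4a-TKO naive T, 3.33 in WT iTreg 3 h and 3.14 in Nr4a-TKO iTreg 3 h. It was higher by 0.31 in WT and lower by 0.12 in Nr4a-TKO.

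Nup210, a glycoprotein that spans the pore membrane, was the member with the largest difference downwards over 3 h in either genotype. It had 3.33 in WT naive T, 3.52 in Nr4a-TKO naive T, 2.59 in WT iTreg 3 h and 2.36 in Nr4a-TKO iTreg 3 h. Both 3 h arrays were below both naive arrays. It was 1.67-fold lower in WT and fell 2.22-fold in Nr4a-TKO, on its only probe. Its paralogue Nup210l, known from testis, was near background: its brighter probe was well above background on the arrays of Nr4a-TKO naive T (-3.84) and WT iTreg 3 h (-3.33) and not on the others (-4.56 and -4.31). Set against the lowest signal that was well above background on the dim arrays, it was at least 1.52-fold higher at 3 h in WT and at least 1.37-fold lower in Nr4a-TKO. Its other probe was well above background on the Nr4a-TKO iTreg 3 h array alone, and there it was at least 1.07-fold higher than in naive T and at least 1.21-fold higher than in WT, the opposite direction.

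**Figure D3:**
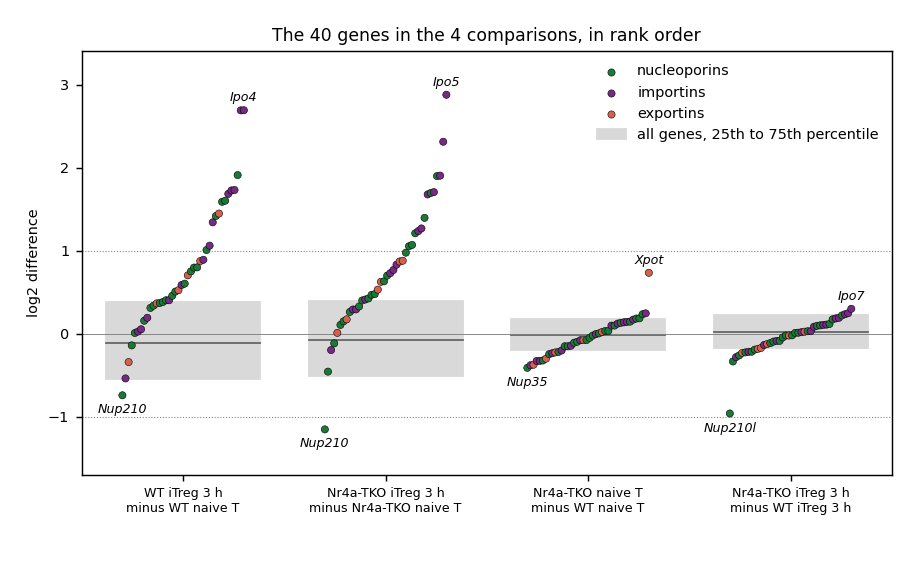
Log2 differences of the 40 genes in the 4 comparisons, in rank order within each, coloured by family, with the lowest and highest gene named and dotted lines at 2-fold. Grey boxes span the 25th to the 75th percentile of all genes and the bar in each is their median. The changes over 3 h reach 2.69 in WT and 2.88 in Nr4a-TKO, while the genotype differences lie between -0.96 and 0.73.

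Between the genotypes, none of the 40 genes differed more than 2-fold at either stage. In naive T cells, 2.63% of all genes passed 2-fold upwards with the Nr4a-TKO label and 2.4% downwards. The median over the 40 genes was -0.06, with 23 lower and 17 higher. The extremes were Xpot, 1.66-fold higher, and Nup35, 1.33-fold lower. At 3 h, where these shares were 2.69% and 2.52%, the median was -0.02, with 21 lower and 19 higher. Apart from Nup210l, at least 1.95-fold lower on 1 probe and at least 1.21-fold higher on the other, the differences ran from -0.33 for Nup43 to 0.30 for Ipo7. The spread between spots, an SD of 0.065, took in the differences of 7 genes in naive T cells and of 10 at 3 h.

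The change in Nr4a-TKO minus that in WT had a median of 0.06 over the 40 genes and of 0.03 over all genes. It was positive for 22 genes and negative for 18. The largest positive value was that of Kpna4, 0.58, whose naive values were -0.27 in WT and -0.60 in Nr4a-TKO and whose 3 h values were -0.08 and 0.17. Xpot had -0.92. For Xpot the naive arrays differed more than the 3 h arrays. This difference between changes could not be tested with 1 array in each group.

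The probes of a gene did not always move together. Of the 40 genes, 29 have several probes, and in WT the probes of 6 of them (Ipo11, Kpna1, Nup160, Nup54, Nup98 and Xpo7) differed by more than 1 log2 unit in their change. The same held in Nr4a-TKO for Ipo11, Kpna1, Nup54, Nup93, Nup98, Xpo5 and Xpo7. Counted by probe, 39 of 101 rose in WT and 2 fell, and 38 of 100 rose in Nr4a-TKO and 2 fell. Probes for RefSeq mRNAs rose in WT in 27 of 65 cases, with a median of 0.75, and those for other transcript records in 12 of 36, with a median of 0.49. The matching shares over all probes of the array are not given here, so these counts are not read as particular to these genes.

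Ipo11 and Nup160 show the disagreement at its widest in WT, so 2 of their probes are printed, 5′ to 3′, with positions on mm9 as the files give them. The first probe of each pair spans more bases of the genome than its 60 letters, so it reads across a splice junction of the RefSeq mRNA. The other belongs to an Ensembl transcript record. That of Nup160 lies inside the stretch that its junction probe skips, which makes it intronic in that mRNA. That of Ipo11 lies within the span of the RefSeq probes, and exon annotation on this build was not used here.
Ipo11 junction probe (chr13:107637518-107638358, minus strand): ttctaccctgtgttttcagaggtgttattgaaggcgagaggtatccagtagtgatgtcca
Ipo11 second probe (chr13:107626293-107626352, minus strand): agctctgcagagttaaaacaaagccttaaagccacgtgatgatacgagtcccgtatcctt
Nup160 junction probe (chr2:90530339-90533225, plus strand): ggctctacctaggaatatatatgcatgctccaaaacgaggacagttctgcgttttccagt
Nup160 second probe (chr2:90532618-90532677, plus strand): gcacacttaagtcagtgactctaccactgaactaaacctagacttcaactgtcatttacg

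The second Ipo11 probe fell where the junction probe rose. It read -1.10 in WT naive T, -0.13 in Nr4a-TKO naive T, -3.11 in WT iTreg 3 h and -2.73 in Nr4a-TKO iTreg 3 h, changes of -2.01 and -2.60. The other RefSeq mRNA probes of Ipo11 were higher by 0.29 and 0.30 in WT. A mean over all 5 probes turns the change of Ipo11 to -0.13 in WT and -0.24 in Nr4a-TKO. The second Nup160 probe read -0.54 in WT naive T and -3.57 in WT iTreg 3 h, and it was not well above background on the Nr4a-TKO arrays, at -3.90 and -4.37. Its high value was thus on the WT naive T array alone. The remaining RefSeq mRNA probes of Nup160 rose by 1.43 and 1.06 in WT. In Nr4a-TKO the same probes were higher by 0.95 and 1.15, and only the latter value passes 2-fold.

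For Kpna1 and Nup54 the brightest probe was the flat one. The RefSeq mRNA probes of Kpna1 rose by 1.24 and 1.65 in WT, while for Nup54 one was higher by 0.65 and the other rose by 1.56. With the brightest RefSeq mRNA probe taken, 16 of the 39 genes with a value rose in WT, against 10.9% of all genes. In Nr4a-TKO, 16 of 40 rose, against 10.5% of all genes. Kpna1, Nup54 and Nup133 were added in each. In Nup98, 1 of the RefSeq mRNA probes rose by 1.77 in WT and 1.63 in Nr4a-TKO, beside 0.40 and 0.47 on the brightest. Another RefSeq mRNA probe of Nup98 rose by 1.15 in Nr4a-TKO. A Nup88 probe for another transcript record rose by 1.13 in WT. Xpo7 has 8 probes, of which 7 gave changes from -0.74 to 0.52 in WT. The lowest is that of a probe placed on the strand opposite to the gene, and without it the lowest was -0.46. In Nup93 and Xpo5 the change in Nr4a-TKO farthest from that of the brightest probe was on a probe for another transcript record, not well above background on at least 1 naive array.

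**Figure D4:**
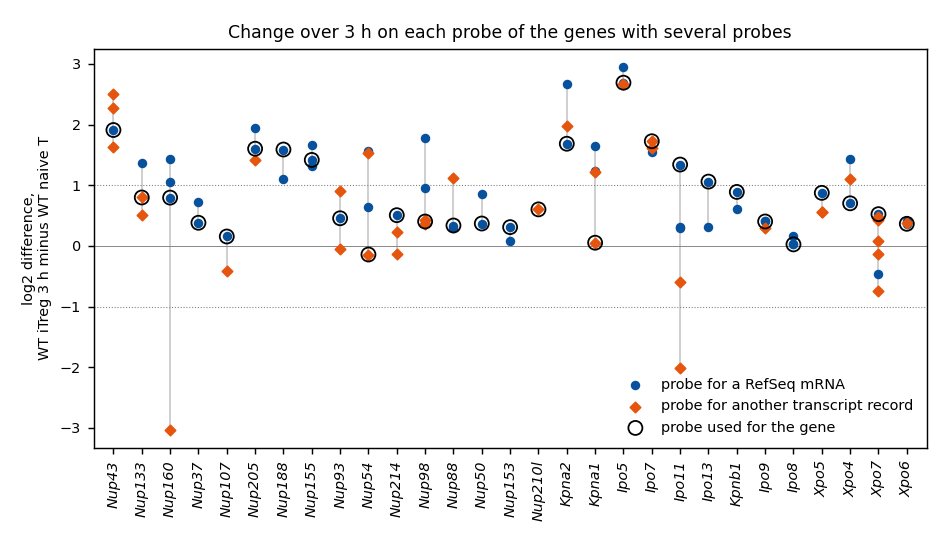
Change over 3 h in WT, in log2 units, on each probe of the genes with several probes. Blue circles are probes for RefSeq mRNAs, orange diamonds probes for other transcript records, a ring marks the probe used for the gene, and dotted lines mark 2-fold. Values of Ipo11 run from -2.01 to 1.34, while the 3 probes of Ipo5 and those of Ipo7 lie close together.

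Promoters were read from the RefSeq windows of GRCm38.p6, which hold 250 bases before and 50 after a gene's start. Of the 40 genes, 31 matched by symbol, among them 13 of the 15 that rose in either genotype. The E-box letters CACGTG, a palindrome bound by Myc and related factors, were in 4 of these 13 windows (Ipo4, Ipo7, Nup188 and Xpot), in 2 of the other 18 (Nup54 and Nup93) and in 7.15% of all 32851 windows. The letters AAAGGTCA, bound by Nr4a factors, were on neither strand of any of the 31 windows and in 1.51% of all windows. AGGAAG, an Ets site, was in 4 of the 13, in 6 of the other 18 and in 35.4% of all. A match is a run of letters in the window and shows no binding.

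The bases before the start of Ipo7, Xpot and Ipo5 are printed 5′ to 3′ on the strand of the gene: the first 2 for their E-box, which is in capitals, and Ipo5 as the steepest rise in Nr4a-TKO, where none was found. The E-box of Ipo4 starts 15 bases after the gene's start. Positions are on GRCm38.p6.
Ipo7 (chr7:110018065-110018314, plus strand): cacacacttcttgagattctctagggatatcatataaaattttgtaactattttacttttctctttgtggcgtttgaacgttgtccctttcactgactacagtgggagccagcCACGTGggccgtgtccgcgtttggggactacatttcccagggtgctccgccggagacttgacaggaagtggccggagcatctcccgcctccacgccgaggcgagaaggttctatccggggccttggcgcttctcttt
Xpot (chr10:121626333-121626582, minus strand): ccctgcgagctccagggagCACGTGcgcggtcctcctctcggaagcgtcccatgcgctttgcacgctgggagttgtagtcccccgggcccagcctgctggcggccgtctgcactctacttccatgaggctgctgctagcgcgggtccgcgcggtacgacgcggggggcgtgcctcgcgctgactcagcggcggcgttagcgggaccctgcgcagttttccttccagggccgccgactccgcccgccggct
Ipo5 (chr14:120910944-120911193, plus strand): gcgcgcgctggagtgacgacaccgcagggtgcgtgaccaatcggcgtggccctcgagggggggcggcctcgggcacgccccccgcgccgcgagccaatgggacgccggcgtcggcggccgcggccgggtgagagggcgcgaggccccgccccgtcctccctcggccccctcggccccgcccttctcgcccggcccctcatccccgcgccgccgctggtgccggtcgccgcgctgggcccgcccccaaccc

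Other genes of nuclear transport, which the naming rule does not take in, were higher as well. Of 36 with a value in WT, 13 rose and none fell more than 2-fold, with a median of 0.90, and 13 of 36 rose in Nr4a-TKO, with a median of 0.85. The shares over all genes are those given for the members, 10.3% and 9.94% higher and 12% and 10.9% lower. The list that rose most was the Ran cycle, with 5 of 7 genes in each genotype. Ran had a log2 signal of 4.10 on both naive arrays, 6.09 in WT iTreg 3 h and 6.13 in Nr4a-TKO iTreg 3 h. Rcc1, the factor on chromatin that loads Ran with GTP, rose by 2.65 and 2.30 log2 units (WT, then Nr4a-TKO). Ranbp1, which helps to unload it, rose by 2.40 and 2.10. Nutf2, the import receptor of Ran itself, rose by 1.72 and 1.86. Rangap1, which triggers GTP hydrolysis in the cytoplasm, differed by -0.23 and -0.40 on the brightest of its 3 probes. That probe is for a transcript record other than a RefSeq mRNA, and the other probes of Rangap1 are not given here.

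Of 12 other pore proteins, 4 rose in each genotype. Ndc1, a membrane protein of the pore, rose by 2.36 and 1.68, and Ahctf1, which seeds pores on chromatin, by 1.17 and 1.24. Aaas (1.42 and 0.91) and Pom121 (1.25 and 0.90) passed 2-fold in WT alone. Nupl1 (0.89 and 1.19) and Rae1 (0.95 and 1.05) did so in Nr4a-TKO alone. At 3 h, Aaas differed by -0.998 in Nr4a-TKO against WT. The basket protein Tpr differed by 0.21 and 0.27. Of 5 other karyopherins with a value, Cse1l, which returns importin α to the cytoplasm, rose by 1.55 and 1.14, and Tnpo3, the importer of splicing factors, was higher by 0.96 in WT and rose by 1.21 in Nr4a-TKO. In mRNA export, 3 of 12 genes rose in WT (Thoc3, Thoc1 and Alyref) and 2 in Nr4a-TKO (Thoc1 and Alyref). The shares over all genes were 10.3% and 9.94%, and these calls are too few to be set against them. The export receptor Nxf1 differed by 0.02 and 0.03.

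**Figure D5:**
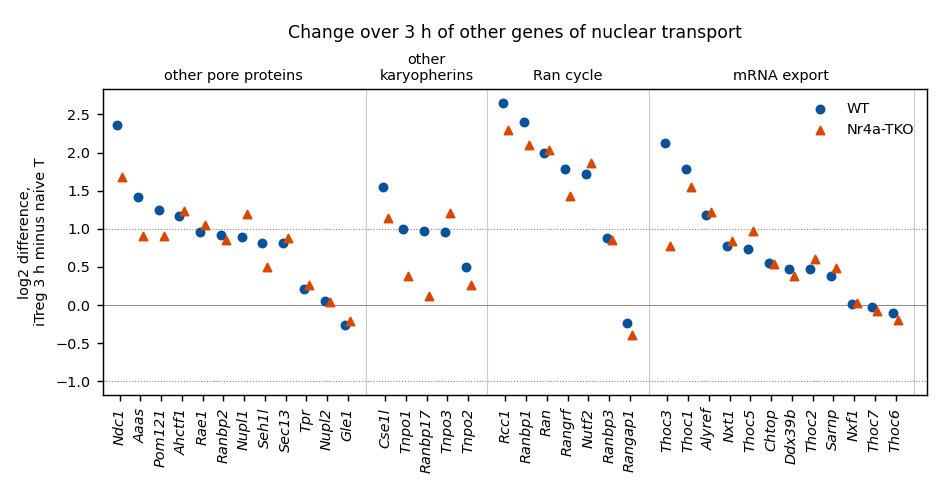
Change over 3 h, in log2 units, of genes of nuclear transport outside the naming rule, in 4 lists, with WT as blue circles and Nr4a-TKO as orange triangles and dotted lines at 2-fold. Rcc1, Ranbp1 and Ran lie at about 2 or above, and Rangap1, Gle1, Thoc6 and Thoc7 lie below 0 in both genotypes on the probe used. The probes used for Rangap1 and Thoc7 are not for RefSeq mRNAs.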

How the data were processed

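Per the labels and methods, each of the 4 RNA samples (100 ng) was labelled with Cy3 and hybridised to 1 array of a single slide, read in 1 scan. The authors deposited the intensity of every spot as Agilent Feature Extraction 11.5.1.1 wrote it, background-subtracted and detrended within the array, with flags and mm9 positions. They also deposited a log2 table of values, which equals log2 of the processed intensity minus a constant for each array; its column medians are -2.16, -2.17, -2.33 and -2.29, and the 75th percentile of each column is 0. The methods name RMA, run here as an alternative.

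Control spots and 115 to 160 flagged spots per array were left out, no spot was saturated, and 64.9% to 67.6% of probes were well above background. Spots of a probe were averaged, and each gene was read from the probe that was brightest on average. Of 56605 probes, 41700 had a current symbol, 1518 were named by transcript and 520 by an older name in RefSeq (GRCm38.p6), and 12867 went unnamed. Differences needed a probe well above background on 1 or both arrays, with a dim value raised to the lowest well above background on its array (-4.30 to -3.94). The threshold was 2-fold. Members are named where they pass 2-fold, where they are highest or lowest of their role in WT, or where probes differ by over 1 log2 unit; others are summarised. The members, roles and lists were chosen with earlier results of these data known. The list of naive T cell genes is not reported here. The levels of the other cell type lists were checked: 5 CD4 T cell genes differed from -0.90 to -0.14 over 3 h in WT, 4 myeloid genes from -3.83 to 0.41, 3 erythroid genes from -0.43 to -0.19 and 2 CD8 T cell genes from -0.70 to -0.15. In Nr4a-TKO the ranges were -1.36 to -0.39, -0.40 to 0.62, -0.26 to 0.56 and -0.92 to -0.73, and the erythroid gene Alas2 was 2.19-fold higher in Nr4a-TKO than in WT at 3 h. Steps were tested on simulated data. The tools were Python 3.11.15, matplotlib 3.10.9, numpy 2.4.6, pandas 2.3.3, and R 4.3.3 with limma 3.58.1, jsonlite 2.0.0 and version 1.17.8 of data.table.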

Additional observations from a re-analysis of the deposited data

Results flagged for a closer look

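In 3 of the 40 genes the change over 3 h ran in opposite directions in the 2 genotypes, by more than the spread between repeated spots in each. Nup153 was higher by 0.31 in WT and had a difference of -0.12 in Nr4a-TKO. Nup210l differed by 0.60 in WT and by -0.46 in Nr4a-TKO, both of them bounds from a probe near background. Nup54 had -0.14 in WT and 0.11 in Nr4a-TKO on its brightest probe, while its RefSeq mRNA probes were higher in both genotypes. With 1 array in each group, the difference between genotypes was not tested for any of the 3.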

How the results depend on the processing

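Of the 120 recomputed medians and counts, 101 stayed close to the value reported. With normexp (offset 0) and quantile normalization, the steps of RMA, the median of the 40 genes in Nr4a-TKO was 0.54. With an offset of 50 the medians were 0.40 in WT and 0.43 in Nr4a-TKO, and 9 genes rose in each. The shares of all genes that rose under that setting were 4.67% in WT and 3.99% in Nr4a-TKO. Scaling to probes well above background on the 4 arrays gave medians of 0.47 and 0.54 and moved the median of all genes in WT from -0.12 to -0.25. The mean of all probes gave 0.68 and 0.77, 0.0192 for Nr4a-TKO against WT naive T and -0.0440 for the difference between changes, and turned Ipo11 to -0.13 in WT and -0.24 in Nr4a-TKO. The brightest RefSeq mRNA probe, added after the values were seen, gave 0.75 and 0.80. At 1.5-fold, 21 genes were higher and 1 lower in WT, 22 were higher in Nr4a-TKO, 1 was higher between the naive arrays and 1 lower between the 3 h arrays. At 3-fold, 8 rose in WT and 7 in Nr4a-TKO, and 0 fell. The shares over all genes at 1.5-fold and 3-fold are not given here, so these counts are not set against them.

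Under the 9 settings at 2-fold, 9 of 13 genes kept their rise in WT: Ipo4, Ipo5, Ipo7, Kpna2, Kpna3, Nup155, Nup188, Nup205 and Nup43. All of these but Nup205 did so in Nr4a-TKO. Ipo11, Ipo13, Nup62 and Xpot lost it in WT under at least 1 setting, and Ipo11, Kpnb1, Nup160, Nup205 and Nup62 in Nr4a-TKO. The cause of these shifts was not tested. No paired analysis was possible because each group has 1 array. Precision is limited by the number of arrays, and for Nup210l by signal near background.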
